A study of Mus musculus with 12 samples.

Results

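The small leucine-rich proteoglycans (SLRPs) are secreted matrix proteins with a core of leucine-rich repeats. Their 10 members described here, Dcn, Bgn, Aspn, Lum, Fmod, Prelp, Kera, Omd, Ogn and Podn, were taken by gene symbol from a table of 23284 genes, and all 10 passed the filter on low counts that kept 14832 genes for testing. Polyadenylated RNA was sequenced from the whole fibrocartilage of the mandibular condyle, the layer that covers the jaw side of the temporomandibular joint. All animals were C57BL/6 females, ovariectomized at 16 weeks of age, given a placebo (Plb) or 17β-estradiol (E2) pellet for 1 week and sampled at 17 weeks. The pellet held 0.01 mg of E2 with a release time of 60 days. The 12 libraries fell into 4 groups: wild-type with placebo (WT Plb, n = 2), wild-type with E2 (WT E2, n = 3), estrogen receptor alpha knockout with placebo (KO Plb, n = 4) and the same knockout with E2 (KO E2, n = 3). The design asked how E2 acts on transcription in this fibrocartilage and what part estrogen receptor alpha has in it. All animals lacked ovaries, so no group shows the intact hormonal state. The sources used here give neither the part of Esr1 that the knockout removed nor whether each library came from 1 animal. P-values therefore measure only the spread between these libraries, which may be technical.

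Total counts ran from 9.70 to 28.8 M (mega) per library, and the 10 genes together held 2.37% to 3.24% of them. The lowest count of any member in any library was 69, for Kera, so every value below rests on detected reads. Esr1, which encodes the receptor, was lower in all 7 KO libraries than in all 5 WT libraries (log2 fold change -1.77 ± 0.20 SE under placebo, adjusted p = 0.0252). Under E2 the difference of Esr1 was -0.97 ± 0.20 and did not pass (adjusted p = 0.0549). Of the cartilage markers, 9 of 10 were in the table and none was at 0 in any library. Their summed level was 8073 to 13482 CPM (counts scaled to the size of the library) in WT Plb, 8423 to 23176 in WT E2, 4280 to 9648 in KO Plb and 3802 to 7170.0 in KO E2. The highest of these was WT E2 replicate 3. The 8 fibrous tissue markers, none of them at 0, summed to 123517 to 132153 CPM in WT Plb, 84613 to 104314 in WT E2, 87470 to 119792 in KO Plb and 113192 to 124221 in KO E2. Granulocyte markers were highest in KO Plb replicate 3 (19458 CPM) and KO E2 replicate 1 (10001 CPM), and skeletal muscle markers were highest in KO Plb replicate 3 (8412 CPM) and WT Plb replicate 2 (3553 CPM). Macrophage markers, with 12 of 13 in the table and none at 0, summed to 870.1 to 1045 CPM in WT Plb, 1088 to 1439 in WT E2, 858 to 1059 in KO Plb and 908 to 1053 in KO E2, so all 3 WT E2 libraries were above the other 9. With E2 in WT none of these 12 passed, against 0.458% of all genes. At an unadjusted p under 0.05 there were 9, all higher, against 8.14% of all genes. The 11 endothelial markers, none at 0, summed to 352 to 392 CPM in WT Plb, 334 to 599.6 in WT E2, 360.2 to 435 in KO Plb and 384 to 430.4 in KO E2. The 9 adipocyte markers summed to 17.7 to 95.3 CPM in WT Plb, 6.54 to 15.6 in WT E2, 18.7 to 73.1 in KO Plb and 8.73 to 26.0 in KO E2, with 0 to 5 of them at 0 in a library. The part of these 3 marker lists in the members' values was not tested. In bulk tissue, fewer cells of a type and less RNA per cell cannot be told apart.

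The family is sorted into classes by sequence and gene structure. Class I holds Dcn (decorin), Bgn (biglycan) and Aspn (asporin). Class II holds Lum (lumican), Fmod (fibromodulin), Prelp, Kera (keratocan) and Omd (osteomodulin, also called osteoadherin). Ogn (osteoglycin, also called mimecan) belongs to class III, and Podn (podocan) to a more recently defined class. Most members sit on the surface of collagen fibrils, where they limit fibril thickness and steer crosslinking, and several also bind growth factors of the TGF-beta family. Class I proteins can carry chondroitin or dermatan sulfate chains and class II proteins keratan sulfate. In the jaw joint, mice that lack both Bgn and Fmod are known to develop degeneration of the condylar cartilage.

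Several of the genes stand side by side in the mouse genome. In GRCm38 with the GENCODE M21 annotation, Dcn (chr10:97479609-97518143), Lum (chr10:97565128-97572703) and Kera (chr10:97606879-97613692) follow each other on the plus strand. Aspn (chr13:49544443-49567565), Omd (chr13:49582462-49592822) and Ogn (chr13:49608046-49624501) likewise follow each other on the plus strand. All 3 of these lie within the span of Cenpp on the opposite strand, with 0 exon bases shared. Fmod (chr1:134037254-134048277, plus strand) neighbours Prelp (chr1:133910304-133921414, minus strand). Prelp shares 350 exon bases with the antisense gene Gm15851, and with no statement on library strand in the sources used here, their reads cannot be told apart. Bgn (chrX:73483602-73495933, plus strand) overlaps no other annotated gene, and Podn (chr4:108014791-108096445, minus strand) overlaps Scp2 on the same strand with 0 exon bases shared.

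The promoters of the 3 members with the widest spread between groups, Omd, Kera and Podn, are shown because the values that follow turn on these genes. They are the 250 bases before a transcription start of RefSeq in GRCm38.p6, 5′ to 3′ on the gene's strand, and capitals mark a match to AGGTCA, the core hexamer of the estrogen response element, or to its reverse complement. The Omd window is chr13:49582212-49582461 on the plus strand and the Kera window chr10:97606955-97607204 on the plus strand. The Podn window, 1 of 2 for this gene, is chr4:108030987-108031236 on the minus strand. By the GENCODE M21 positions above, the Omd window lies directly before the gene. The Kera and Podn windows lie within the span of their genes, where GENCODE sets an earlier start.
Omd: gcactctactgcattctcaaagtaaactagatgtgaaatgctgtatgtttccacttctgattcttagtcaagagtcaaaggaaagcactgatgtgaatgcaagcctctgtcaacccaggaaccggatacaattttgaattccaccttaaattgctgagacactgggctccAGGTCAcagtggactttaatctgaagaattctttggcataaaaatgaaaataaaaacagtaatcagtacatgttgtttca
Kera: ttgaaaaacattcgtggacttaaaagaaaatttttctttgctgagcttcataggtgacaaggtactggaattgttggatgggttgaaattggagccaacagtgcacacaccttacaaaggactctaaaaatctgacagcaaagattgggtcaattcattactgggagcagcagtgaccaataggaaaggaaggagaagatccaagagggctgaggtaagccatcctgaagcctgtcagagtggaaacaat
Podn: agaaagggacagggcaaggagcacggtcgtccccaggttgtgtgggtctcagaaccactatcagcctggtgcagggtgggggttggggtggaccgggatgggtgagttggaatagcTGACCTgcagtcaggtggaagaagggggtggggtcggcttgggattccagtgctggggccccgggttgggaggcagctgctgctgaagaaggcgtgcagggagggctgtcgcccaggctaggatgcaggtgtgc
The hexamer began 80 bases before the RefSeq start of Omd, on the forward strand. For Podn it began 134 bases before the RefSeq start of the window shown, on the reverse strand. The Kera window and the other Podn window, chr4:108031955-108032204, held none. RefSeq windows, 300 bases long with 50 after the start, matched 8 of the 10 members in 9 windows, and Dcn and Lum had no entry. The hexamer was present in 2 of these 9 and in 16.3% of 32851 windows of all genes, searched on both strands. The full element, GGTCA and TGACC with any 3 bases (NNN) between them, was in 0 of the 9 and in 0.07% of all windows. On both strands, the AP-1 site TGACTCA was in 0 of the 9 (5.2% of all windows), the RUNX site TGTGGT in 1, that of Ogn (16.8%), and the TATA box TATAAA in 2, those of Aspn and Ogn (13.6%). These matches are descriptions of letters and were not tested as binding sites.

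Per kilobase of exon, Bgn and Fmod were the most abundant members and Kera and Podn the least. The mean over 12 libraries was 3520 CPM per kb for Bgn, 2778 for Fmod, 1598 for Dcn, 1355 for Lum, 790.2 for Aspn and 306 for Prelp. It was 202 CPM per kb for Omd, 65.5 for Ogn, 7.81 for Kera and 4.62 for Podn. Each gene lay above the next one in this order in all 12 libraries, with 3 exceptions. Dcn was above Lum in 9 of 12 libraries, Prelp above Omd in 11 and Kera above Podn in 8. The order of Kera and Podn differed between groups: Kera stood at 14.4 ± 2.35 CPM per kb in WT Plb (SD, n = 2) and Podn at 6.56 ± 1.44, while in WT E2 both were near each other, at 2.99 ± 1.29 and 3.09 ± 0.679 (n = 3).

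**Figure D1:**
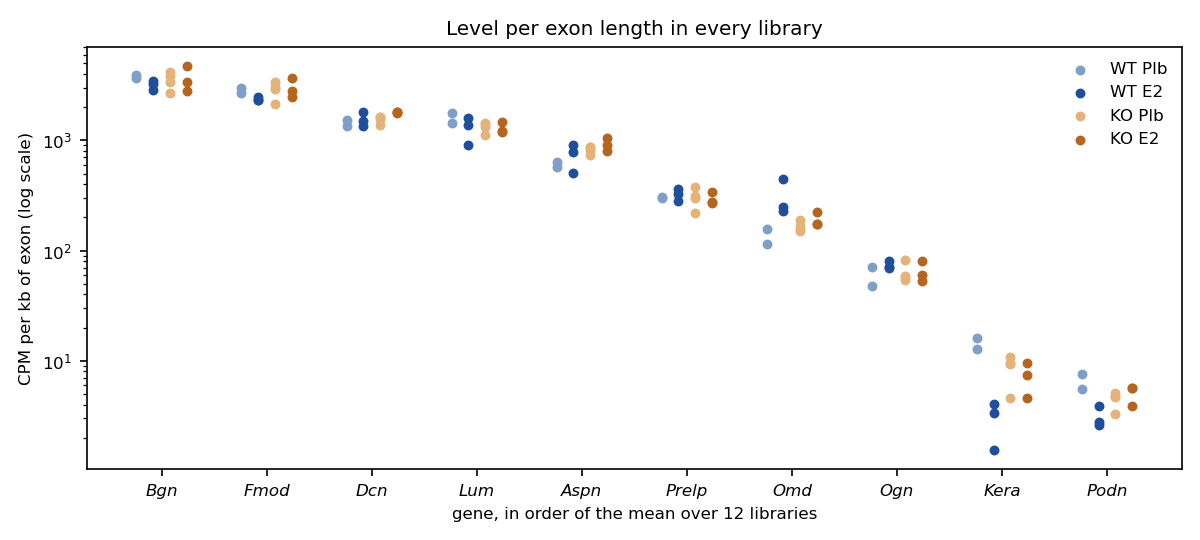
Level of each gene per kilobase of exon (log axis) in each of 12 libraries, coloured by group and ordered by the mean. Bgn and Fmod were highest, Kera and Podn lowest, and the spread within a gene was widest for Kera.

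With E2 in WT, Kera was 4.82-fold lower, Podn 2.13-fold lower and Omd 2.28-fold higher, but 0 of the 10 members passed the test at an adjusted p of 0.05 in edgeR, against 0.458% of all genes. With DESeq2 these 3 genes passed, against 1.57% of all genes. At an unadjusted p under 0.05 there were 3 of 10, Omd higher and Kera and Podn lower, against 8.14% of all genes. The 3 WT E2 libraries did not overlap the 2 WT Plb libraries for 5 members (Omd higher; Bgn, Fmod, Kera and Podn lower), against 26.9% of all genes. The median log2 fold change of the members was -0.08 and that of all genes -0.00430, while the median size regardless of sign was 0.29 for the members and 0.14 for all genes.

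**Figure D2:**
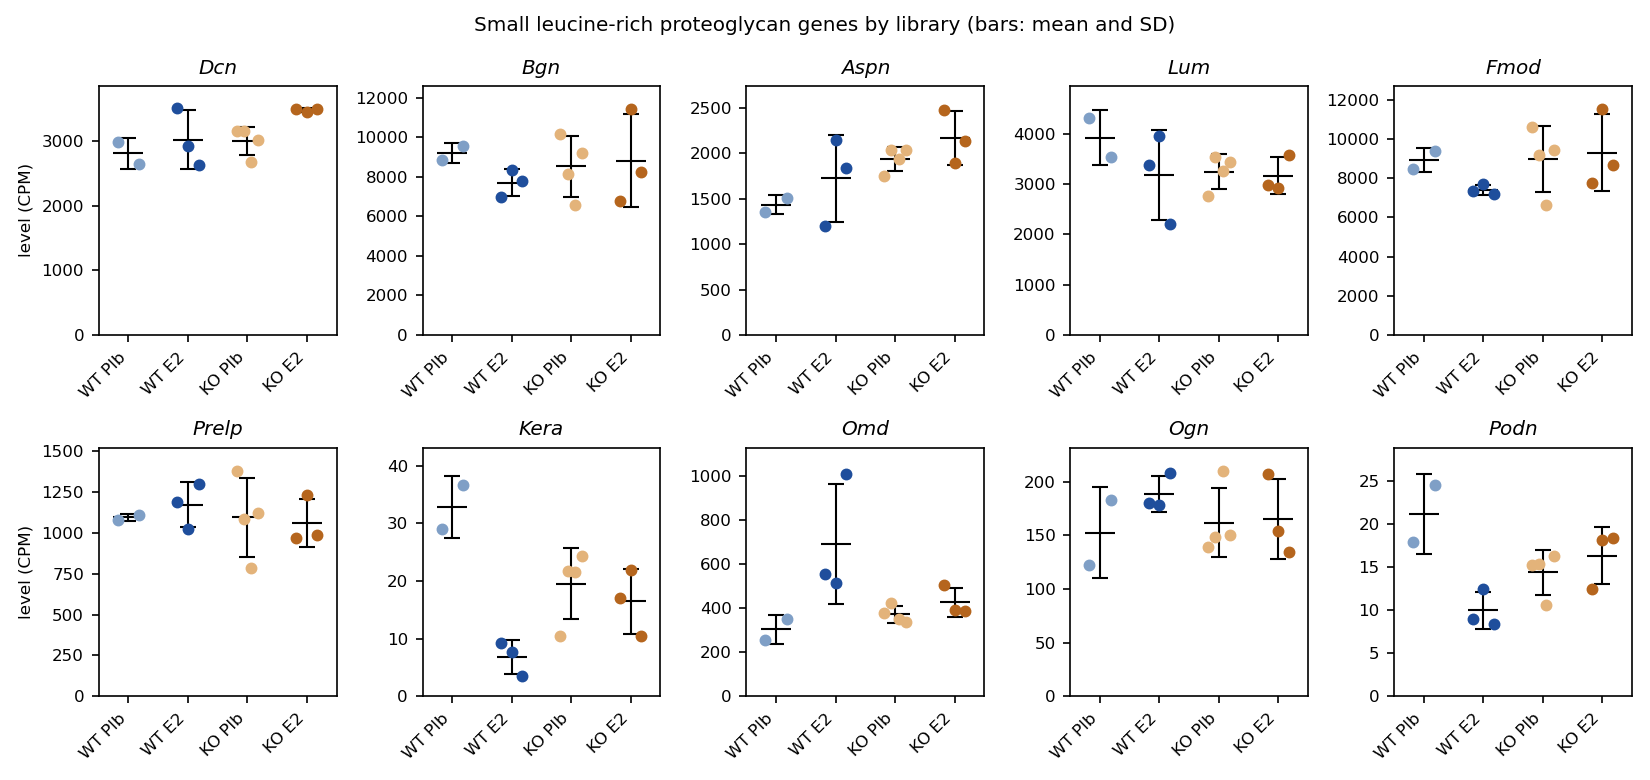
Level of each of the 10 genes in CPM (linear axis from 0) in every library, with the mean and SD of each group. The 3 WT E2 libraries lie lowest for Kera, at 3.53 to 9.23 CPM, and highest for Omd, at 514 to 1006 CPM.

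Kera encodes keratocan, known as a keratan sulfate proteoglycan of the cornea. It stood at 29.1 and 36.7 CPM in the 2 WT Plb libraries and at 9.23, 7.67 and 3.53 CPM in the 3 WT E2 libraries. It stood at 10.5, 21.8, 21.5 and 24.4 CPM in the 4 KO Plb libraries and at 17.0, 21.9 and 10.5 CPM in the 3 KO E2 libraries. The WT Plb libraries were thus the 2 highest of all 12 and the WT E2 libraries the 3 lowest, and the KO groups lay between them and overlapped each other. The log2 fold change with E2 in WT was -2.27 ± 0.43 (SE), with a 95% interval from -3.22 to -1.32 and an adjusted p of 0.0570. The authors' deposited table gives -1.99 ± 0.34 for the same comparison with an adjusted p of 1.64e-06. The result thus lies at the threshold: it passed under 6 of 21 other settings, with adjusted p between 2.35e-05 and 0.466, and the fold change stayed between -2.55 and -1.96. The summed fibrous tissue markers were also lower in all 3 WT E2 libraries than in both WT Plb libraries. Most of this sum is collagen: Col1a1, Col1a2 and Col3a1 had means of 42114, 47454 and 19875 CPM in WT Plb. Of the 8 markers, 6 had a negative and 2 a positive log2 fold change with E2 in WT. The mean log2 level of the 8, used as the covariate, overlapped between WT Plb and WT E2. With this mean level as a covariate, chosen after the data were seen, the fold change of Kera was -2.12 (adjusted p = 0.215), and with that of the cartilage markers it was -2.37 (adjusted p = 0.0414).

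Omd encodes a proteoglycan known from bone, where it binds mineral and osteoblasts. Its level was 257 and 349.8 CPM in the 2 WT Plb libraries and 555, 514 and 1006 CPM in the 3 WT E2 libraries. It was 376, 423, 350.4 and 338 CPM in KO Plb and 504, 389 and 388 CPM in KO E2. All 3 WT E2 libraries were above the other 9, with replicate 3 far above the rest, and KO Plb overlapped both WT Plb and KO E2, which did not overlap each other. The log2 fold change with E2 in WT was 1.19 ± 0.28 (95% interval 0.58 to 1.80, adjusted p = 0.146), and without WT E2 replicate 3 it was 0.82 (adjusted p = 0.156). The authors' deposited table gives 1.09 ± 0.28 with an adjusted p of 0.00974. As a share of the counts of all 10 genes, Omd made up 0.934% and 1.23% in WT Plb and 2.28%, 1.92% and 4.16% in WT E2. Replicate 3 of WT E2 also had the highest summed cartilage and osteoblast markers, the latter at 17815 CPM against 10960 to 14444 CPM in the KO Plb libraries and 13274 to 13538 CPM in WT Plb. With the fibrous markers as a covariate the fold change of Omd was 0.80 (adjusted p = 0.352), and with the cartilage markers 1.13 (adjusted p = 0.0704); the part of the osteoblast markers was not tested.

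Podn encodes podocan, which binds collagen and was first described in the kidney glomerulus. It stood at 17.9 and 24.5 CPM in WT Plb and at 9.03, 12.5 and 8.40 CPM in WT E2. It stood at 15.3, 15.4, 10.6 and 16.3 CPM in KO Plb and at 12.5, 18.2 and 18.3 CPM in KO E2. WT Plb and WT E2 did not overlap, while the WT E2 libraries overlapped both KO groups. The log2 fold change with E2 in WT was -1.09 ± 0.25 (95% interval -1.63 to -0.55, adjusted p = 0.129). The authors' deposited table gives -1.02 ± 0.25 with an adjusted p of 0.00658. With the fibrous markers as a covariate the value was -0.83 (adjusted p = 0.349).

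The other 7 members had smaller differences with E2 in WT, and the 95% interval of each lay within a change of 1 on the log2 scale in either direction. Bgn, the most abundant member, stood at 8867 and 9583 CPM in WT Plb and at 6991, 8323 and 7794 CPM in WT E2, so the groups did not overlap (-0.26 ± 0.22, interval -0.75 to 0.23). Fmod, which guides collagen crosslinking, stood at 8493 and 9386 CPM in WT Plb and at 7328, 7689 and 7222 CPM in WT E2, again without overlap (-0.27 ± 0.20, interval -0.72 to 0.18). For Lum, a regulator of fibril diameter that lies between Dcn and Kera, the levels of 4306 and 3535 CPM in WT Plb overlapped those of 3380.4, 3946 and 2202 CPM in WT E2 (-0.30 ± 0.22). The log2 fold change of Dcn, the best studied binder of collagen and TGF-beta in the family, was 0.10 ± 0.13, with 2815 ± 239 CPM in WT Plb and 3024 ± 456 CPM in WT E2 (SD, n = 2 and 3). Prelp, whose basic end binds heparan sulfate, had a difference of 0.10 ± 0.20, from 1094 ± 20.0 to 1171 ± 138 CPM. For Ogn, a small secreted protein known from bone and vessel wall, it was 0.30 ± 0.23, from 153 ± 42.7 to 189 ± 16.5 CPM. For Aspn, which carries a run of aspartates and inhibits TGF-beta, it was 0.27 ± 0.21, from 1435 ± 108 to 1726 ± 481 CPM. Adjusted p for these 7 genes lay between 0.801 and 0.946. Differences within these intervals would not have been detectable, and even the larger ones of Kera, Omd and Podn did not pass by edgeR.

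In the knockout, no member passed the test with E2, by edgeR or by DESeq2. Nor did any of the 14832 genes tested by edgeR (0%) or of the 14912 given an adjusted p by DESeq2 (0%). The authors' deposited table has 9 genes with an adjusted p under 0.05 here, and the lowest of a member was 0.920, for Dcn. By edgeR, 0 of 10 members had an unadjusted p under 0.05, against 5.7% of all genes. The log2 fold change with E2 in KO was -0.26 ± 0.36 for Kera (95% interval -1.06 to 0.54), 0.20 ± 0.22 for Omd (-0.29 to 0.69) and 0.18 ± 0.21 for Podn (-0.28 to 0.64). The interval of Kera reached past a decrease of 1 on the log2 scale, and the other 9 intervals lay within 1 in either direction. Dcn was the member without overlap, 1 of 10 against 5.67% of all genes. Its levels were 3154, 3150.2, 2682 and 3022 CPM in KO Plb and 3503, 3453 and 3506 CPM in KO E2. The 3 KO E2 libraries lay within a narrow band above all KO Plb libraries, with a log2 fold change of 0.22 ± 0.11 (adjusted p = 0.905).

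The difference between these E2 effects was tested as an interaction, the effect in KO minus the effect in WT. It was 2.01 ± 0.56 for Kera (adjusted p = 0.440), 1.27 ± 0.32 for Podn (adjusted p = 0.353) and -0.99 ± 0.35 for Omd (adjusted p = 0.617). None of the 10 members passed, against 0.0539% of all genes, and these 3 had an unadjusted p under 0.05, against 6.78% of all genes. A different effect of E2 in the 2 genotypes was therefore not shown for any member by this test. With DESeq2, Kera (adjusted p = 0.0430) and Podn (adjusted p = 0.0428) passed, against 0.606% of all genes. Averaged over both genotypes, the E2 effect was -1.26 ± 0.28 for Kera (adjusted p = 0.191), 0.69 ± 0.18 for Omd (adjusted p = 0.304) and -0.45 ± 0.16 for Podn (adjusted p = 0.526), with 0 of 10 called against 0.0539% of all genes. These 3 had an unadjusted p under 0.05, against 7.85% of all genes, and by DESeq2 Kera and Omd passed, against 0.865%.

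**Figure D3:**
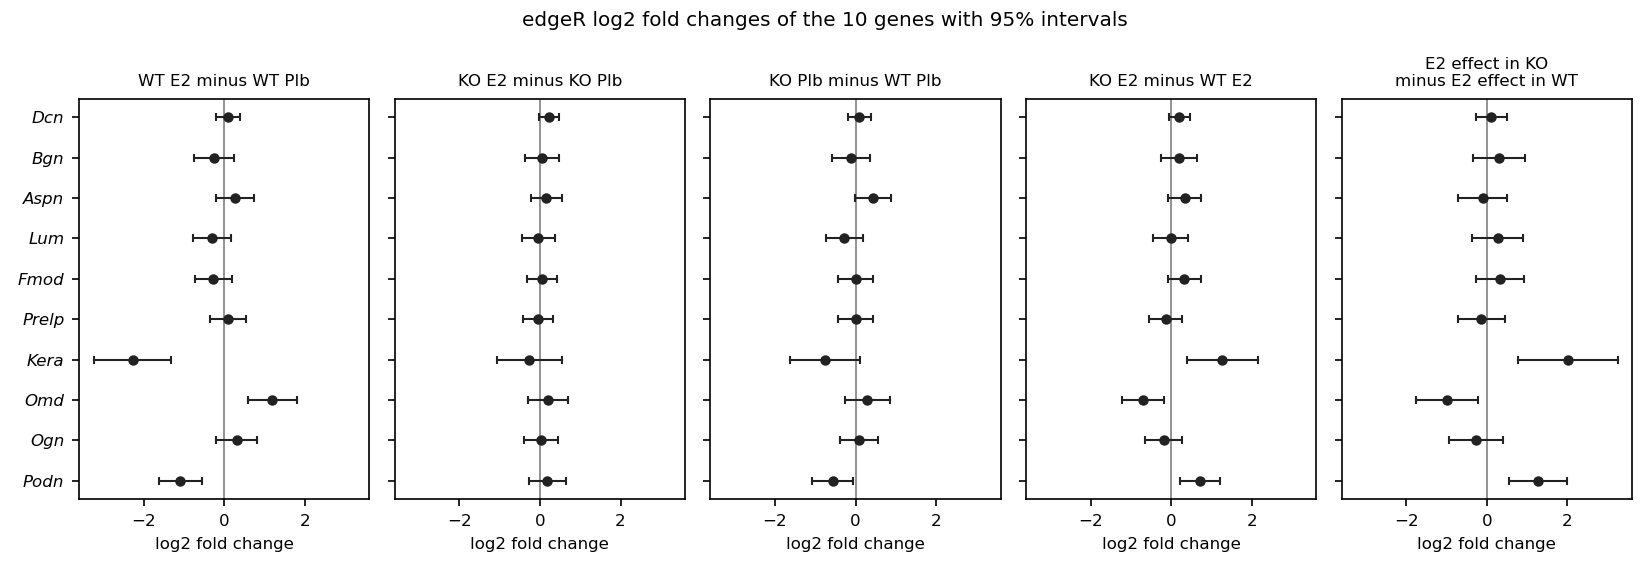
Log2 fold changes of the 10 genes in 4 comparisons and the interaction, with 95% intervals from edgeR. Kera, Omd and Podn lie away from 0 for E2 in WT (-2.27, 1.19 and -1.09) and near 0 for E2 in KO (-0.26, 0.20 and 0.18), and most other intervals include 0.

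Between KO and WT under placebo no member passed the test by edgeR or by DESeq2, against 0.0135% of all genes by edgeR and 0.905% by DESeq2. This comparison shares its WT Plb libraries with the E2 comparison in WT, so the values are set side by side and not counted as separate evidence. Kera was lower in all 4 KO Plb libraries than in both WT Plb libraries (-0.75 ± 0.39, adjusted p = 0.626), and so was Podn (-0.56 ± 0.23, adjusted p = 0.518). Aspn was higher in all 4 KO Plb libraries, at 1751, 2034, 1937 and 2042 CPM against 1359 and 1511 CPM in WT Plb (0.44 ± 0.20, adjusted p = 0.568). The authors' deposited table gives 0.44 ± 0.11 for Aspn with an adjusted p of 0.00536. These 3 of 10 members had no overlap, against 21.1% of all genes, and 1 of 10 (Podn) had an unadjusted p under 0.05, against 8.93%. For the other 7 members the difference ranged from -0.27 for Lum to 0.29 for Omd.

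Under E2, the same 3 genes had the largest differences between KO and WT, in a comparison that shares its WT E2 libraries with that of E2 in WT. The KO minus WT difference was 1.26 ± 0.40 for Kera (adjusted p = 0.218), 0.71 ± 0.23 for Podn (adjusted p = 0.222) and -0.70 ± 0.24 for Omd (adjusted p = 0.273). No member passed by edgeR, against 1.1% of all genes, and Kera passed by DESeq2 (adjusted p = 0.0318), against 3.07%. These 3 had an unadjusted p under 0.05, against 11.5%, and Fmod, Kera and Omd had no overlap, against 15.9%. Fmod stood at 7738, 11531 and 8675 CPM in KO E2, above all WT E2 libraries (0.33 ± 0.18, adjusted p = 0.550). In the authors' deposited table Kera passed here (1.16 ± 0.36, adjusted p = 0.0348). Summed cartilage markers were higher in all 3 WT E2 libraries than in all 3 KO E2 libraries, while their mean log2 level, used as the covariate, overlapped. With this level as a covariate the difference of Omd was -0.28 (adjusted p = 0.765) and that of Kera 0.89 (adjusted p = 0.504), and without WT E2 replicate 3 they were -0.32 and 0.95.

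Averaged over both treatments, the KO minus WT difference was 0.38 ± 0.14 for Aspn (adjusted p = 0.253), the 1 member of 10 with an unadjusted p under 0.05, against 14% of all genes. No member passed by edgeR or by DESeq2, against 0.978% of all genes by edgeR and 3.55% by DESeq2. Aspn stood at 2476, 1891 and 2142 CPM in KO E2 and at 1199.8, 2143 and 1835 CPM in WT E2, so under E2 the genotypes overlapped. All 95% intervals of this average lay within 1 in either direction.

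Kera, Omd and Podn varied most over the 12 libraries. Kera and Podn were highest in WT Plb replicate 2 and lowest in WT E2 replicate 3. Omd was lowest in WT Plb replicate 1 and highest in WT E2 replicate 3. These ranges thus rest on the libraries of the E2 comparison in WT and are not separate from it. The highest library was 10.4 times the lowest for Kera, 3.91 times for Omd and 2.91 times for Podn. For the other 7 genes the ratio ran from 1.34 for Dcn to 2.06 for Aspn. Bgn and Fmod, the most abundant pair, were both lowest in KO Plb replicate 3, at 6578 and 6639.7 CPM, and both highest in KO E2 replicate 2, at 11417 and 11531 CPM. KO Plb replicate 3 had the highest granulocyte and muscle markers, and KO E2 replicate 2 was the smallest library; the part of these in the 2 genes was not tested.

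**Figure D4:**
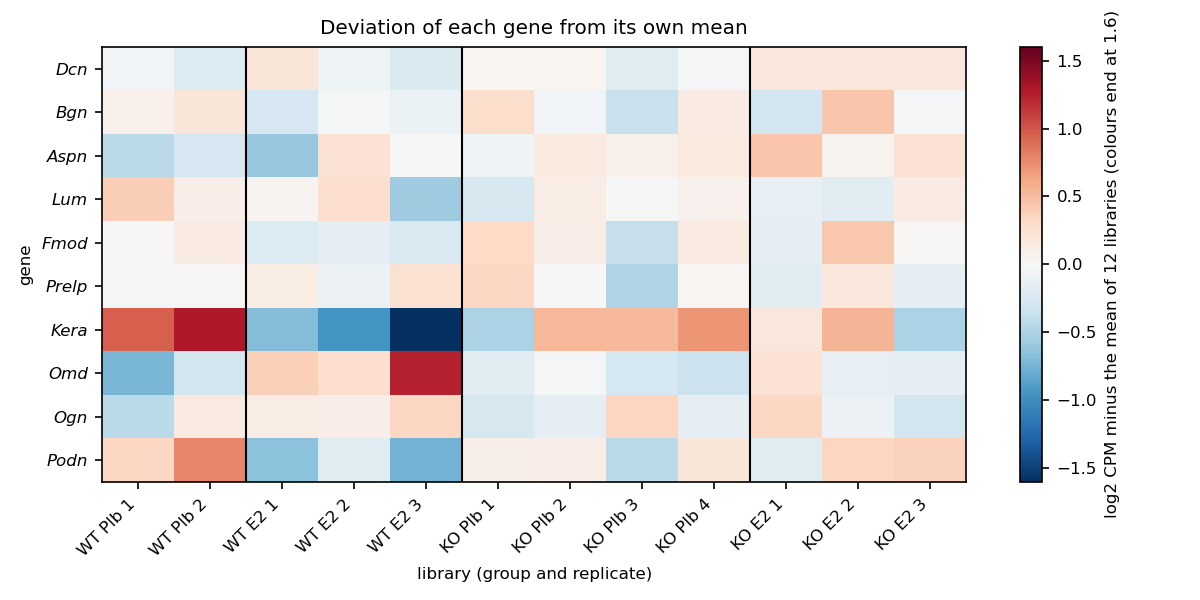
Deviation of each gene (rows) in each library (columns) from the gene's mean log2 CPM, with vertical lines between groups. The strongest colours are in Kera, high in WT Plb and low in WT E2, and in Omd, high in WT E2 replicate 3.

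No pair of neighbouring genes passed the test for a shared pattern over all libraries. Over 12 libraries, 7 neighbouring pairs were compared by the log2 CPM of both genes, and p-values were adjusted over these 7. Pearson's r was 0.62 for Ogn and Omd (permutation p = 0.0255, adjusted p = 0.160), with a Spearman's rho of 0.42 (permutation p = 0.176, adjusted p = 0.618). It was 0.55 for Fmod and Prelp (permutation p = 0.0600, adjusted p = 0.160; rho 0.44, permutation p = 0.153, adjusted p = 0.618) and 0.54 for Lum and Kera (permutation p = 0.0686, adjusted p = 0.160; rho 0.34, permutation p = 0.288, adjusted p = 0.672). The other 4 pairs, Dcn with Lum, Dcn with Kera, Ogn with Aspn and Omd with Aspn, had r between -0.00553 and 0.19. Without the 2 libraries farthest from the median of the first gene, r was 0.69 for Ogn and Omd, 0.24 for Fmod and Prelp and -0.11 for Lum and Kera. For Lum and Kera these libraries were WT Plb replicate 1 and WT E2 replicate 3, and for Fmod and Prelp they were KO E2 replicate 2 and KO Plb replicate 3. Within groups, as deviations from the group means, r was 0.85 for Fmod and Prelp (permutation p = 8.60e-04, adjusted p = 0.00602). It was 0.49 for Ogn and Omd (permutation p = 0.108, adjusted p = 0.228). The permutations shuffled the deviations over all 12 libraries, although subtracting a group mean ties the deviations within a group to each other. The within-group p-values may therefore be too small, and the values of r were not recomputed without the farthest libraries.

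As a description, the gene most like each member by Pearson's r over the same 12 libraries, among 12455 genes, was Arf1 for Lum (0.97), Itm2a for Podn (0.95), Spic for Omd (0.94), Ptprv for Bgn (0.93), Alx4 for Fmod (0.93), Setd1a for Prelp (0.92), Matn4 for Kera (0.91), Zbtb11 for Aspn (0.90), Rhpn2 for Dcn (0.90) and Prosc for Ogn (0.86). Kera was followed by Mlec and Mfap2 (both 0.90), Podn by Igf2 (0.94) and Mdga1 (0.93), and Omd by Mme (0.93) and Tnnc1 (0.92). Fmod stood among the 3 genes most like Bgn (0.92). With so many genes and 12 libraries that share their groups, values this high describe these libraries alone.

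The genes around the family were read from lists by role. Their counts at an unadjusted p under 0.05 with E2 in WT stand against 8.14% of all genes, and their counts by edgeR's adjusted p against 0.458%. Of 8 further members of the wider SLRP family, 6 were tested, and Epyc and Optc did not pass the filter. None of the 6 passed with E2 in WT by edgeR, 2 had an unadjusted p under 0.05 and by DESeq2 Chad passed. Chad, a cartilage protein that binds integrins and collagen, stood at 337 and 417 CPM in WT Plb and at 1434, 583 and 2364 CPM in WT E2. In KO Plb it stood at 581, 384, 299 and 247 CPM, and in KO E2 at 337, 459 and 267 CPM. All 3 WT E2 libraries were above the other 9, replicate 2 only just, with a log2 fold change of 1.95 ± 0.54 (adjusted p = 0.247). Ecm2, a matrix protein next to Aspn, had a difference of 0.24 ± 0.16 (adjusted p = 0.763).

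Keratan sulfate is built on class II members by a set of sugar transferases and sulfotransferases, of which 13 of 14 were tested. With E2 in WT 1 of the 13 passed as higher and none as lower, against 0.371% and 0.0876% of all genes. The list did not move 1 way: 7 log2 fold changes were positive and 6 negative. At an unadjusted p under 0.05 there were 2 higher and 3 lower. Chst1, the sulfotransferase that sulfates galactose of keratan sulfate, stood at 28.9 and 35.9 CPM in WT Plb and at 115, 72.0 and 86.3 CPM in WT E2. It stood at 51.1, 43.6, 36.6 and 34.2 CPM in KO Plb and at 33.5, 60.4 and 47.2 CPM in KO E2. All WT E2 libraries were above the other 9. Chst1 rose by a log2 fold change of 1.49 ± 0.27 (adjusted p = 0.0495), and the value in KO was 0.18 ± 0.22. The interaction was -1.31 ± 0.35 and did not pass by edgeR (adjusted p = 0.389), while it passed by DESeq2 (adjusted p = 0.0343). The call lies at the threshold and was lost without either WT Plb library (adjusted p = 0.461 without replicate 1 and 0.394 without replicate 2), without WT E2 replicate 1 (0.159) or 3 (0.117), without any of the 4 KO Plb libraries (0.0557 to 0.0922), and without KO E2 replicate 2 (0.0538) or 3 (0.0938). The call held under 6 of 21 other settings, and the fold change stayed between 1.29 and 1.66.

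**Figure D5:**
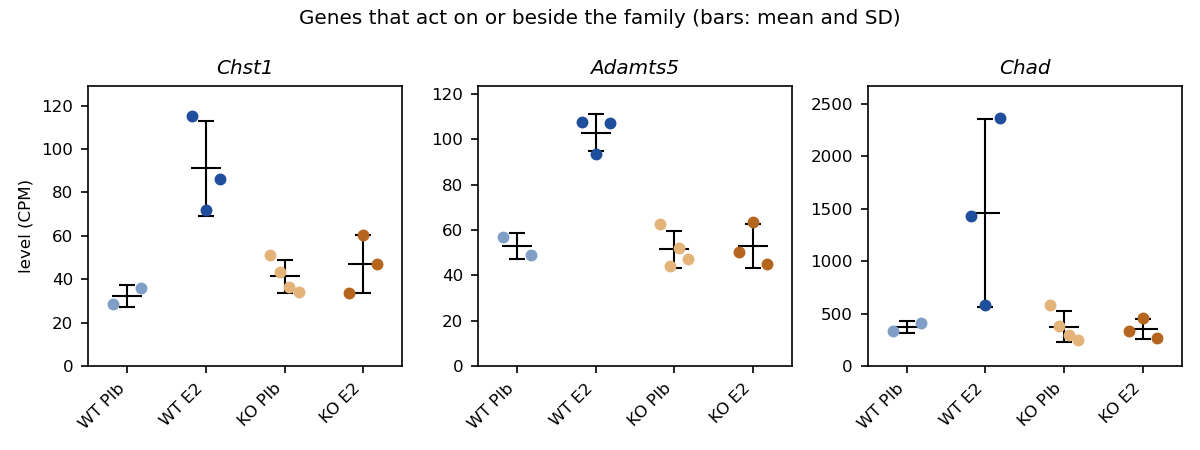
Level in CPM (linear axes from 0) of Chst1, Adamts5 and Chad in each library, with the mean and SD of each group. All 3 WT E2 libraries lie above the other 9 for each gene, by a wide margin for Adamts5 (93.6 to 108 CPM) and a narrow one for Chad, whose lowest WT E2 library was at 583 CPM.

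Of the proteases that cleave SLRPs, 13 of 15 were tested and 1 passed as higher with E2 in WT, against 0.371% of all genes. The log2 fold change was negative for 9 of the 13, and no other had an unadjusted p under 0.05. Adamts5, an aggrecanase that also cleaves several SLRPs, stood at 57.0 and 48.9 CPM in WT Plb and at 108, 93.6 and 107 CPM in WT E2, with 44.2 to 62.5 CPM in KO Plb and 44.9 to 63.5 CPM in KO E2. It rose by 0.96 ± 0.17 (adjusted p = 0.0437), and was lower in KO than in WT under E2 (-0.96 ± 0.15, adjusted p = 0.0138). The first call held under 7 of 21 other settings. It was lost without either WT Plb library (adjusted p = 0.266 and 0.489), without WT E2 replicate 1 (0.159) or 3 (0.126), without KO Plb replicate 2 (0.0614), 3 (0.0542) or 4 (0.0766), and without KO E2 replicate 1 (0.0724) or 3 (0.0584). The second was lost without WT E2 replicate 1 (0.0649) or 3 (0.0516), without KO E2 replicate 1 (0.0783) or 3 (0.0723), or with the cartilage markers as a covariate (0.0981). Of 22 enzymes that build the linker and the chondroitin or dermatan sulfate chains of class I members, none passed the test with E2 in WT by either tool, and 1 had an unadjusted p under 0.05. The most expressed 2, the sulfotransferases Chst11 and Chst12, had differences of 0.04 ± 0.15 and -0.16 ± 0.19 (adjusted p = 0.973 and 0.885).

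The collagens that SLRPs bind, with their fibril partners, made up 19 tested genes, and none passed with E2 in WT by edgeR. At an unadjusted p under 0.05 there were 6, all lower, and by DESeq2 Matn4, a cartilage matrilin, passed as lower. The log2 fold change was negative for 15 of the 19, with a median of -0.28. Col1a1 and Col1a2, the chains of type I collagen, had differences of -0.49 ± 0.17 (adjusted p = 0.444) and -0.41 ± 0.16 (adjusted p = 0.510). Both belong to the fibrous markers whose summed level is given above. Of 15 crosslinking and collagen processing genes none passed with E2 in WT by either tool, 6 had an unadjusted p under 0.05 (2 higher and 4 lower), and 10 were negative. Serpinh1, the collagen chaperone, had a difference of -0.42 ± 0.16 (adjusted p = 0.516) and P4hb, the beta subunit of the prolyl hydroxylase, -0.27 ± 0.11 (adjusted p = 0.569). KO against WT under placebo shares its 2 WT Plb libraries with the comparison of E2 in WT. In it, all 19 fibril collagen and partner genes were negative (median -0.32), and 1 of them had an unadjusted p under 0.05, against 8.93% of all genes. So were 18 of the 22 linker and chain enzymes and 5 of the 10 SLRP members. All 15 crosslinking and processing genes were negative as well, with a median of -0.34 against 0.01 for all genes. None of them passed by either tool, and 9 had an unadjusted p under 0.05, against 8.93% of all genes. Under E2 none passed by edgeR, while by DESeq2 Lox, Loxl1, Loxl4 and Plod2 passed as lower in KO, against 3.07% of all genes, and the same 4 did so averaged over both treatments, against 3.55%. Of the 19 fibril collagen and partner genes, none passed under E2 by edgeR. By DESeq2 Col1a1 and Col1a2 passed there as higher in KO and Col2a1 as lower, against 3.07%. Col1a1 and Col1a2 also passed as positive in the interaction by DESeq2, against 0.606%, and not by edgeR. Of 24 growth factors, receptors and complement proteins that members bind, 23 were tested and none passed with E2 in WT by either tool, with 3 at an unadjusted p under 0.05, all higher. Lrp1 and Itgb1, the most expressed of these, had differences of 0.12 ± 0.17 and -0.13 ± 0.14 with E2 in WT (adjusted p = 0.906 and 0.873).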

How the data were processed

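The tools named in the submitters' processing notes are bcl2fastq 2.17 and TopHat, with mm9 as the genome build; the sources used here name no counting tool or annotation. The authors deposited raw counts per gene symbol for 23284 genes. Their deposited comparison tables hold log2 fold changes with SE and p-values, unadjusted and adjusted, and every other test value was computed from the counts.

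The 12 libraries were grouped by genotype and treatment as labelled. Genes passing the edgeR filter at a minimum count of 10 (14832) were scaled by TMM and fitted in edgeR 4.0.16 (R 4.3.3) by quasi-likelihood with 1 mean per group over 12 libraries, leaving 8 residual degrees of freedom. P-values were adjusted by Benjamini-Hochberg within each contrast at 0.05. SE was derived from the F statistic (size of the log2 fold change over the root of F). CPM are TMM-scaled, and log2 CPM used a prior count of 2. Correlations used 100000 permutations, two-sided. Exon lengths and positions came from GENCODE M21 on GRCm38 and promoters from RefSeq on GRCm38.p6; no mm9 coordinates were used.

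All 10 members were named, and from each further list up to 4 genes past the threshold by p or, with none, the 2 most expressed. The members and lists were chosen with earlier results of these data known. Other settings were DESeq2 1.42.0, its size factors, no filter, a replicate block, muscle or granulocyte markers as covariate, only the groups compared and each library left out. Cartilage and fibrous marker covariates were added after the data were seen. On simulated counts the fit was required to recover most of the larger changes put in (2 on the log2 scale), and it did. No condition was set on the share of smaller changes recovered or on false calls. Snorc, Ly6g, Ahsp and Adgre1 had no row under these symbols.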

Additional observations from a re-analysis of the deposited data

Results flagged for a closer look

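The level of Ogn in KO Plb was singled out because 1 library stood apart from the other 3. KO Plb replicate 3 held 209.8 CPM against 139, 148 and 150.3 CPM, and the gap to the nearest library was 0.841 of the whole range, where Dixon's 95% limit for 4 values is 0.829. It was 1 of 11 groups of 4 checked, and chance alone gives about 1 in 20. The same library had the highest granulocyte markers (19458 CPM) and skeletal muscle markers (8412 CPM) of the 12, and their part in the value was not tested.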

How the results depend on the processing

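The number of members that passed with E2 in WT, 0 in edgeR with all groups, was 3 with DESeq2 (Kera, Omd and Podn), 2 with granulocyte markers as a covariate (Kera and Podn), 1 each without the filter, with muscle markers and with cartilage markers as a covariate (Kera), and 0 to 1 with a library left out, the 1 being Kera without KO Plb replicate 1 (adjusted p = 0.0494). For KO against WT under E2 it was 1 with DESeq2 (Kera) and 1 with the granulocyte covariate (Podn). It was 2 with DESeq2 for the interaction and 2 for the averaged E2 effect. In every other setting of every contrast it stayed 0, those that leave out a library included. Whether replicate numbers pair the libraries was not settled. Over 15 same-numbered pairs the correlation of deviations ran from -0.37 to 0.55, with 9 above 0.1. All pairs among the replicate 2 libraries were positive (0.25 to 0.53), while those of replicates 1 and 3 had both signs. With a replicate block 0 members passed in any contrast, and the genes called for E2 in WT went from 68 to 18, for genotype under E2 from 163 to 62, for the interaction from 8 to 3 and for averaged genotype from 145 to 34; the calls of Chst1 and Adamts5 for E2 in WT were lost under it (adjusted p = 0.185 and 0.183), as was that of Adamts5 for genotype under E2 (0.0606). The cause of these shifts was not tested.

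Over all genes, E2 in WT gave 245 calls with DESeq2, and 45, 89, 67 and 17 with the muscle, granulocyte, cartilage and fibrous covariates. It gave 7 with only the groups compared and 1 to 131 with a library left out. Genotype under placebo gave 2 calls in edgeR, 145 with DESeq2, 1 with each marker covariate, 0 with only the groups compared or the block and 1 to 4 with a library left out. Genotype under E2 gave 491 with DESeq2, and 92, 206, 52 and 210 with the muscle, granulocyte, cartilage and fibrous covariates. It gave 66 with only the groups compared and 51 to 236 with a library left out. The interaction gave 97 calls with DESeq2, 21, 0 and 3 with the granulocyte, muscle and fibrous covariates and 0 to 31 with a library left out. Averaged E2 gave 8 calls in edgeR, 129 with DESeq2, 15 and 1 with the cartilage and fibrous covariates and 1 to 64 with a library left out. Averaged genotype gave 568 with DESeq2, 94, 25 and 38 with the muscle, cartilage and fibrous covariates and 13 to 247 with a library left out.

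Of 1440 recomputed fold changes of members, 69 changed sign, none of them with a call in either fit. On deviations from group means r was 0.26 for Dcn and Kera, against -0.00553 over all libraries, and 0.85 for Fmod and Prelp. Without the 2 farthest libraries r was -0.34 for Dcn and Lum, -0.11 for Lum and Kera, -0.085 for Ogn and Aspn and -0.11 for Omd and Aspn. The limits are the 2 WT Plb libraries, on which the E2 effect in WT and the genotype effect under placebo rest, and the low counts of Kera and Podn.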
